A study of Homo sapiens with 9 samples.

Results

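PRPF8 sites at the 5′ splice site, the exon–intron boundary at the start of an intron, were compared between HEK293 and K562 cells by antibody-barcode eCLIP (ABC), in which barcoded antibodies against 10 RNA-binding proteins (RBPs) share 1 tube and the barcode assigns each RNA fragment to its RBP. HEK293 is a human embryonic kidney line and K562 a human leukaemia line with erythroid features. Both were untreated, grown in the same medium, crosslinked with ultraviolet light and immunoprecipitated with the same PRPF8 antibody, which gave 2 PRPF8 libraries in HEK293 and 3 in K562. Of 300207 annotated 5′ splice sites, 97735 lay nearest to a merged PRPF8 peak in at least 1 of the 5 libraries and 66256 to an enriched one. An intron is called marked where an enriched peak, with a deposited P below 0.001 and a fold above 8 over an external background library, was centred within 100 nt of its 5′ splice site. By this rule, 3598 introns were marked in all 5 libraries, 4750 in both HEK293 libraries and in no K562 library, and 7585 in all 3 K562 libraries and in no HEK293 library. A further 6735 were marked in every library of 1 line and in some of the other.

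PRPF8 is the largest protein of the U5 small nuclear ribonucleoprotein (snRNP) and lies at the catalytic centre of the spliceosome. It enters with the U4/U6.U5 tri-snRNP, after U1 has recognised the 5′ splice site and U2, which contains SF3B4, has bound the branch point near the 3′ splice site. PRPF8 contacts the 5′ splice site, the branch point and the 3′ splice site as the intron is removed, and its crosslinks are known to gather just downstream of the 5′ splice site. A site at an intron can be read only where the pre-mRNA is made, so the other 9 RBPs of each tube (DDX3, EIF3G, FAM120A, IGF2BP2, LIN28B, PUM2, RBFOX2, SF3B4 and ZC3H11A) served as a control for the presence of the transcript.

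The HEK293 libraries are HEK293T by title, HEK293XT in the methods and K562 in their cell-line field, and 1 K562 library has K563 there. The signal followed the titles. PRPF8 peaks at 5′ splice sites were found in all 3 K562 libraries for 15 of 19 erythroid genes and in both HEK293 libraries for 2 of them, with a summed level of 1862 to 2262 reads per 1000000 peak reads of the library (RPM) in K562 and 15 to 16 in HEK293. Of 12 embryonic kidney and neural genes, 8 had peaks in both HEK293 libraries and 1 in all K562 libraries, at 457 to 481 and 9.16 to 31.3 RPM, while the kidney factor PAX8 had none in either line. The libraries held 934737 and 1441110 reads in PRPF8 peaks in HEK293 and 436826 to 639045 in K562, which bounds the precision of each site. The external background differed between the lines. At peaks within 100 nt of a 5′ splice site, its median was 58 and 59 reads in the HEK293 files and 1 read in each K562 file, and it was at or below 1 read for 6.31% and 4.43% of the peaks in HEK293 and for 97.6% to 97.8% in K562. Enrichment was therefore called against a different background in each line, and the line and its background cannot be told apart in that call, so that counts of any merged peak, which need no background, are given beside it. Nothing states whether replicates came from separate cultures, so the spread may be technical.

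The introns that carry the comparison begin as follows, with 20 bases of exon and 40 of intron and the first 5 bases of the intron in capitals, all in GRCh38. Introns that were marked in all 5 libraries and hold no small RNA gene within 300 nt show how closely the starts vary around the usual GTAAG or GTGAG.
CIRBP intron 6, chr19:1272032-1272091, plus strand: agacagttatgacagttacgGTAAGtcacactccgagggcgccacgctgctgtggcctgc
RPL9 intron 5, chr4:39456366-39456425, minus strand: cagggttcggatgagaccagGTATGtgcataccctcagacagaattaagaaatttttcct
VEGFA intron 5, chr6:43778899-43778958, plus strand: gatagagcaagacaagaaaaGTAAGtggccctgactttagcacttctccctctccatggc
STAT5B intron 9, chr17:42218111-42218170, minus strand: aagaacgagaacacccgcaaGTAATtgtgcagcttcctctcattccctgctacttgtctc
Introns of HEK293 alone, with no K562 peak before any call of enrichment, are shown next, since at RPS2, EIF4A2 and RACK1 the other RBPs were not lower in K562.
RPS2 intron 5, chr16:1962696-1962755, minus strand: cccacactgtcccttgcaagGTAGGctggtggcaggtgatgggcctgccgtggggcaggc
EIF4A2 intron 2, chr3:186784458-186784517, plus strand: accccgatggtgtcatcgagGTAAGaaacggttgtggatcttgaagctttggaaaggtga
RACK1 intron 5, chr5:181239027-181239086, minus strand: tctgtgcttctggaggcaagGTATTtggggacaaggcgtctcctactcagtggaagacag
PTPRF intron 18, chr1:43605424-43605483, plus strand: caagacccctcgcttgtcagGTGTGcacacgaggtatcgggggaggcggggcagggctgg
Introns of K562 alone follow, with HSPA8 and HSPA5 as genes that were also present in HEK293.
HSPA8 intron 6, chr11:123059019-123059078, minus strand: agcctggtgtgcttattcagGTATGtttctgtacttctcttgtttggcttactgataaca
HSPA5 intron 3, chr9:125240132-125240191, minus strand: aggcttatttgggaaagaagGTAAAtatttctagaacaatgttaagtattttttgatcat
PIM1 intron 2, chr6:37170860-37170919, plus strand: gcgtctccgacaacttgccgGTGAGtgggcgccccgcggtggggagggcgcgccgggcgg
FTL intron 1, chr19:48965590-48965649, plus strand: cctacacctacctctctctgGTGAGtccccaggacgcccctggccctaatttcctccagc
The starts of the introns of either line do not fall into 2 kinds by eye, and their shares over the whole sets are given further on.

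Which line had more introns of its own depended on how a site was called. With the enriched call, K562 held 7585 introns of its own and HEK293 4750. With any merged peak, HEK293 held 10226 and K562 2071, while 13931 introns had a peak in all 5 libraries. The HEK293 libraries listed 91279 and 109547 merged peaks, against 50980 to 63944 in K562, and 56449 and 64705 introns with any peak against 36645 to 48261. With the same 33636 top-ranked peaks from each library, the counts drew near to each other, at 3685 for HEK293, 4755 for K562 and 5000 for all 5 libraries. The complement control takes the other 9 barcodes of the same tube as the background, here with a fold computed from reads in called peaks. With it, HEK293 held 3796 and K562 833. Most introns of the K562 set were thus not bare in HEK293: a merged peak lay at 74.2% and 78.0% of the 7585 in the HEK293 libraries, with a median of 9.63 and 9.02 RPM over the set against 18.8 to 20.6 in K562. At the 4750 introns of the HEK293 set a merged peak lay at 8.29%, 13.4% and 18.0% in the K562 libraries. No CLIPper peak of any library of the other line, enriched or not, was within 100 nt at 3202 introns of the HEK293 set (67.4%) and at 1119 of the K562 set (14.8%).

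**Figure D1:**
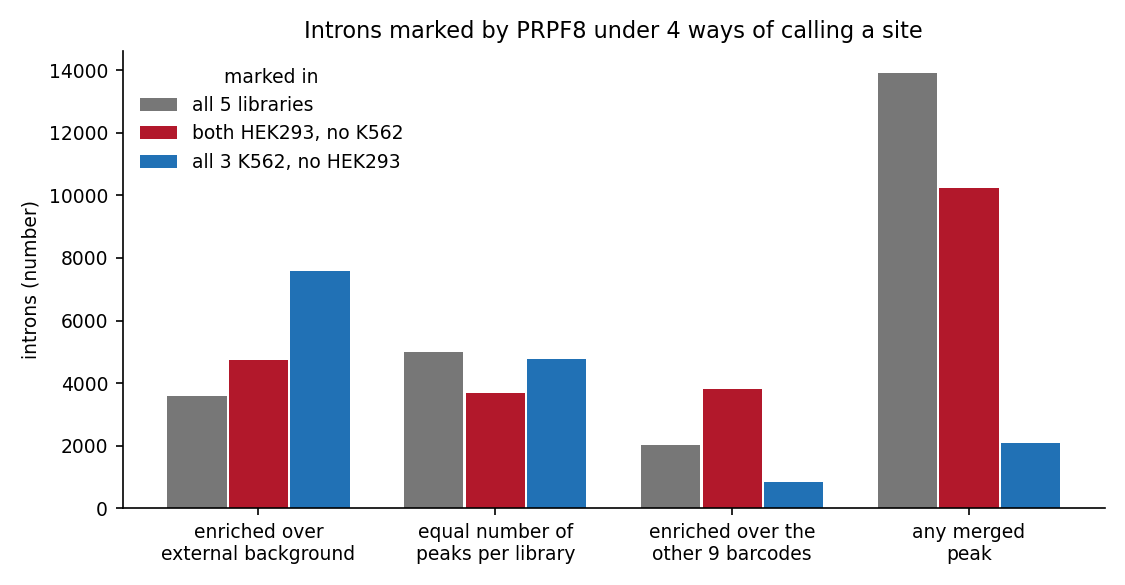
Number of introns (bars, y axis) marked by PRPF8 in all 5 libraries, in both HEK293 and no K562 library, or in all 3 K562 and no HEK293 library, under 4 ways of calling a site (x axis). The K562 bar is the taller of the line-specific pair with the external background (7585 against 4750) and the shorter with any merged peak (2071 against 10226).

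Within a line the libraries resembled each other more than between lines. Over the 3598 introns marked in all 5, log2 levels correlated across introns at a Pearson r of 0.85 between the HEK293 libraries and of 0.79 to 0.80 among the K562 libraries, and at 0.53 to 0.59 between the lines. These points are introns, many of the same gene, and not independent replicates. The libraries differed by more than counting noise in each pair, with a chi-squared per degree of freedom of 3.00 in HEK293 and 1.72 to 2.14 in K562, so none was taken for a copy of another.

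The strongest introns marked in all 5 libraries were of a few abundant transcripts, and 5 of the 8 highest held a small nucleolar RNA (snoRNA). CIRBP intron 6 had at least 945 and at least 575 RPM in HEK293 and 664, 589 and 656 in K562, where "at least" marks a peak whose deposited P was at its upper limit, so that its reads are known only as a lower bound. It belongs to a cold-inducible RNA-binding protein. RPL13A intron 5, which holds SNORD34, had at least 463 and at least 201 in HEK293 and 842, at least 1216 and 1072 in K562. Its peaks were centred 76.0 to 87.0 nt into the intron in all 5 libraries, far from the usual site. The same late position, between 40 and 97 nt, was found in the introns of GAS5 (SNORD47), SNHG1 (SNORD29), SNHG5 (SNORD50A) and RPL13 (SNORD68), the first 3 being host genes whose known products are snoRNAs. Here PRPF8 signal at the splice site and at the snoRNA could not be told apart. The list also held a short annotated intron of MALAT1, a nuclear noncoding RNA, and PRAME intron 2.

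Introns without a small RNA gene were then ranked, a choice made after the values were seen. RPL9 intron 5, of a protein of the large ribosomal subunit, had 202 and 159 RPM in HEK293 and 291, 231 and 325 in K562. VEGFA intron 5, of the angiogenic growth factor, had 50.3 and 41.6 in HEK293 and 304, 314 and 208 in K562. TXNIP intron 1, of an inhibitor of thioredoxin, had 13.9 and 10.4 in HEK293 and 249.5, 197 and 379 in K562. All K562 libraries were above both HEK293 libraries at these 3 introns. RPL41 intron 2 went the other way, with 288 and 252 in HEK293 and 64.1, 75.6 and 182 in K562. STAT5B intron 9, of a signal transducer in blood cells, had 38.5 and 40.2 in HEK293 and 293, 149 and 293 in K562, and the other RBPs were higher in K562 at its gene too, with 71.9 to 73.0 RPM in HEK293 and 493 to 531 in K562. At VEGFA and TXNIP too the other RBPs were higher in every K562 pool than in both HEK293 pools, while at RPL9 they overlapped.

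Of the introns of HEK293 alone, the 8 highest had no peak in any K562 library, enriched or not. RPS2 intron 5, of a small ribosomal subunit protein, had 58.8 and at least 87.4 RPM in HEK293, while the other RBPs had 535 and 834 in HEK293 and 1352, 755 and 1247 in K562 at its gene. EIF4A2 intron 2, of a translation initiation helicase, had 46.0 and 36.1, with the other RBPs at 548 and 596 in HEK293 and at 1884 to 2937 in K562. RACK1 intron 5, of a ribosome-bound scaffold protein, had 21.4 and 48.6, with the other RBPs at 859 to 923 in HEK293 and 841 to 1074 in K562, and its peaks were centred −65 and −77 nt from the site, inside the exon. The other RBPs were thus not lower in K562 at these 3 genes, beyond the spread of the pools, and 5, 4 and 5 other introns of them had PRPF8 peaks in every K562 library. That level includes peaks at small RNAs inside introns, whose part was not tested at any of these 3 genes. EIF4A2 is also among the snoRNA host genes listed. The other 5 introns were of genes lower in K562. ACAD11 intron 14, of an acyl-CoA dehydrogenase, had 79.2 and 39.6 RPM of PRPF8 in HEK293, and its gene had 1.77 to 4.39 of the other RBPs in K562 against 85.3 to 87.8. PTPRF intron 18, of a receptor tyrosine phosphatase, had 62.0 and 36.8, and its gene had 4.71 to 8.24 against 676 to 772. STC2, a secreted glycoprotein, C1orf35 and RECQL4, a DNA helicase, had 36.1 to 56.7 RPM of PRPF8 at introns 2, 4 and 12, with the other RBPs lower in every K562 library than in both HEK293 libraries. A missing peak means that none was called, not that reads were absent, so no fold is given.

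Of the introns of K562 alone, 3 of the 8 highest were of genes well covered in HEK293. HSPA5 intron 3, of the chaperone of the endoplasmic reticulum, had 73.3, 69.6 and 106 RPM in K562 and no peak in HEK293, where its gene had 112 and 142 of the other RBPs against 577 to 839 in K562 and PRPF8 peaks at 6 other introns. HSPA8 intron 6, of the constitutive heat shock cognate, had 103, 111 and 75.1, centred 86.5 to 91.5 nt into an intron that holds SNORD14D, and its gene had 592 and 728 in HEK293 and 2674 to 3588 in K562. MALAT1, at a 5′ splice site at chr11:65499115 that opens an annotated intron of 4002 nt, had 309, 286 and 304, and the transcript was at 2517 to 2763 of the other RBPs in HEK293 and 11388 to 15629.5 in K562. The other 5 were of genes far lower in HEK293. PIM1 intron 2, of a serine/threonine kinase of blood cells, had 165, 157 and 164 RPM of PRPF8, and the other RBPs had 12.05 and 9.62 in HEK293 and 1049 to 1419 in K562. CPED1 intron 19 had 98.4, 47.7 and 128, and the other RBPs had 0.631 and 0.738 in HEK293 and 663 to 815 in K562. FTL intron 1, of the ferritin light chain that stores iron, had 110, 73.6 and 68.9, with 23.8 and 33.2 in HEK293 and 812 to 1321 in K562. EGFL7 intron 3 and PRAME intron 3, of a vascular secreted protein and a tumour antigen, had 80.1 to 178, with the other RBPs at most at 22.9 in HEK293.

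**Figure D2:**
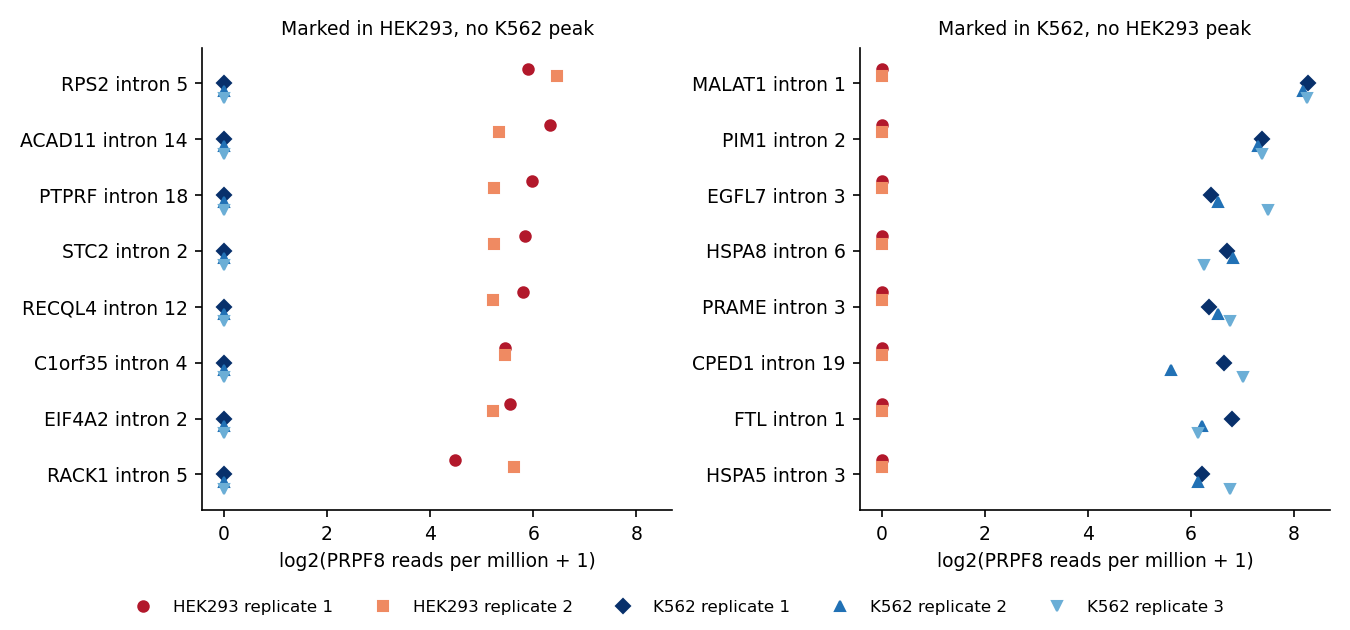
PRPF8 level of the 8 highest introns of HEK293 alone (left) and of K562 alone (right), as log2 of RPM plus 1 (x axis), 1 point per library. Every library of the line that lacks a peak sits at 0, and the K562 introns reach further, with MALAT1 at 286 to 309 RPM.

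The genes of the line-specific introns differed in how present they were in the other line. For 7179 of the 7585 introns of the K562 set (94.6%, Wilson 95% interval 94.1 to 95.1), the gene had peaks of the other RBPs in both HEK293 libraries. For 2855 of the 4750 introns of the HEK293 set (60.1%, 58.7 to 61.5) it had them in all 3 K562 libraries. These intervals cover counting error alone, and introns of 1 gene are not independent. A share over 3 libraries is also harder to reach than one over 2, and with a peak in at least 1 pool the HEK293 set rose to 80.1%. The 2530 genes of the HEK293 set had a median of 43.3 ± 0.742 (SD, n = 2) RPM of the other RBPs in HEK293 and of 6.72 ± 1.31 (SD, n = 3) in K562, a ratio of 6.45 with no overlap of the libraries (exact permutation test, two-sided, p = 0.1, the smallest that 2 against 3 libraries allow). The 3205 genes of the K562 set had 63.2 ± 3.10 in HEK293 and 71.9 ± 6.23 in K562, which overlapped (exact permutation p = 0.3). Fewer molecules of a transcript and less PRPF8 per molecule cannot be told apart without that control. The sets shared 207 genes, 8.18% of the HEK293 genes and 6.46% of the K562 genes.

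Introns with no peak at all in the other line were the stricter case. Of the 1119 such introns of K562, the gene had peaks of the other RBPs in both HEK293 libraries for 745 (66.6%), and the other RBPs were at least as high in HEK293 for 143 (12.8%). Of the 3202 such introns of HEK293, the gene had them in all K562 libraries for 1580 (49.3%), and at least as high for 159 (4.97%). Another intron of the same gene had a PRPF8 peak in every library of the other line for 599 (53.5%) of the K562 introns and for 925 (28.9%) of the HEK293 introns. Most introns seen in 1 line alone thus lay in genes where the other RBPs were also lower in the other line, while 143 of the K562 introns and 159 of the HEK293 introns did not.

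Enriched PRPF8 peaks lay over the first bases of the intron in both lines, and in HEK293 their centres lay nearer to the exon. The median centre was at 7.0 and 1.5 nt in HEK293 and at 8.5, 10.0 and 8.0 nt in K562, counted from the boundary with the intron above 0, a HEK293 minus K562 difference of −4.58 nt (exact permutation test, two-sided, p = 0.1). The share of peaks centred on the intron side was 65.1% and 52.6% in HEK293 and 67.1%, 69.8% and 74.6% in K562. The groups did not overlap, but HEK293 replicate 2 stood apart from replicate 1. With stricter limits on enrichment (P below 1e-05 and a fold above 16) they overlapped, at 9 and 4 nt in HEK293 and 9, 10 and 8 nt in K562 (difference −2.5 nt, exact permutation p = 0.5), as did the shares, at 69.4% and 57.6% against 68.9% to 75.6% (exact permutation p = 0.2). With the former limits but without HEK293 replicate 2, the difference in the median was −1.83 nt and that in the share −5.37 percentage points. Without HEK293 replicate 1 they were −7.33 nt and −18.0 points. Peaks from 50 nt to the boundary on the exon side made up 27.4% and 37.9% in HEK293 and 19.7% to 24.1% in K562. The start of the peak gave another picture: it lay in the intron for 25.0% and 19.3% in HEK293 and for 7.92% to 12.8% in K562, so that the HEK293 minus K562 difference was 11.0 points by the 5′ end and −11.7 points by the centre. Median 5′ ends overlapped, at −17 and −25 nt in HEK293 and −16, −17 and −20 nt in K562 (exact permutation p = 0.6). Median widths were 48 and 56 nt in HEK293 and 50 to 57 nt in K562.

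**Figure D3:**
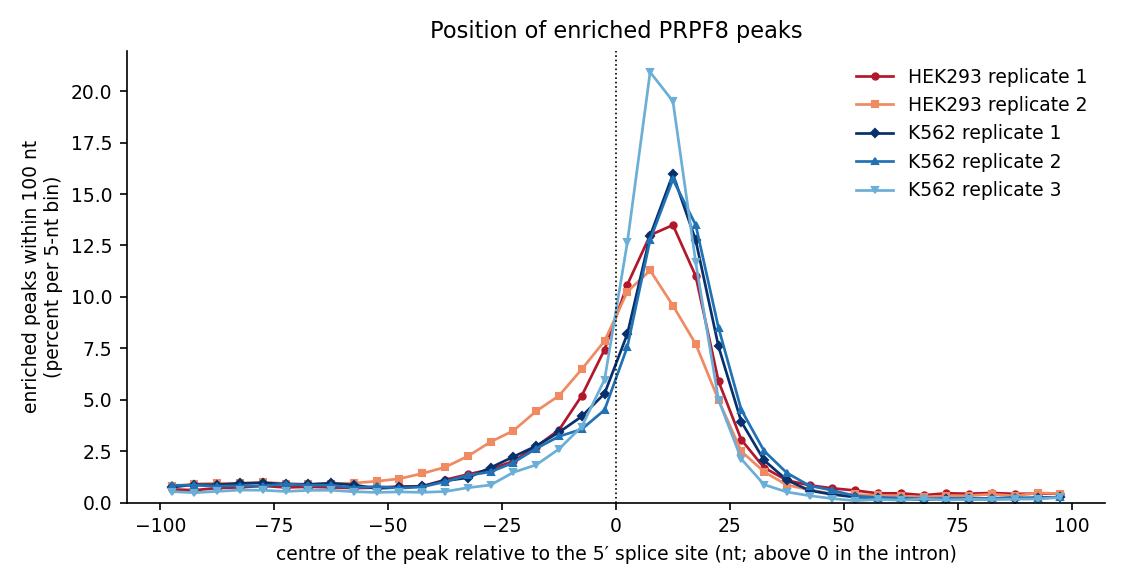
Share of the enriched PRPF8 peaks within 100 nt of a 5′ splice site (y axis, percent per bin) by the distance of the peak centre from it (x axis, nt, above 0 in the intron), 1 line per library. The highest bin of K562 replicate 3 is centred at 7.5 nt and holds 20.9% of its peaks, and HEK293 replicate 2 holds the largest share, 37.9%, in the 50 nt on the exon side.

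On the same introns the shift was seen intron by intron. Over the 3598 introns marked in all 5 libraries, the mean centre in HEK293 minus that in K562 was −5.75 nt at the median, nearer to the exon in HEK293 (quartiles −11.6 and −1.17 nt). Both HEK293 peaks lay upstream of all 3 K562 peaks at 1144 introns (31.8%) and downstream of all at 126 (3.50%). Within a line, the median shift between libraries was 1 nt in HEK293 and −1.5 to 4 nt in K562. At RPL9 intron 5 the centres were at −9.0 and −14.5 nt in HEK293 and at 12, 7.5 and 4 nt in K562. At TXNIP intron 1 they were at 1.0 and 9.5 nt in HEK293 and at 17, 16 and 13 nt in K562. RPL4 intron 8 had its centres on the exon side in all 5 libraries, at −19.0 and −20.5 nt in HEK293 and −7.5 to −17.0 nt in K562. With any merged peak the median centre was at 0.5 and −5.0 nt in HEK293 and at 8.0 to 9.5 nt in K562. Read depth, the peak list and the external background differed with the line, and their part in the shift was not tested.

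Beyond the 5′ splice sites, the HEK293 libraries held enriched peaks in places where the K562 libraries held few. Peaks within 100 nt of a 5′ splice site made up 63.4% and 59.0% of the enriched peaks in HEK293 and 80.9% to 85.5% in K562. Of all merged peaks, which need no background, they made up 67.5% and 64.9% in HEK293 and 75.6% to 80.1% in K562, a smaller gap. The enriched call uses another background in each line, and its part in the shares that follow was not tested. Peaks elsewhere in an intron made up 17.4% and 20.3% in HEK293 and 2.1% to 2.28% in K562, and those elsewhere in an exon 10.5% and 11.6% against 4.63% to 6.15%. Peaks within 100 nt of a 3′ splice site were 5.92% and 6.39% in HEK293 and 5.44% to 8.40% in K562. Small and ribosomal RNA genes held 1.92% to 2.26% of the peaks in all 5 libraries, and 34.7% and 40.8% of the reads of enriched peaks in HEK293 against 21.7% to 24.2% in K562. The U5 snRNA, which PRPF8 binds in its own snRNP, had 16163 and 13143 RPM in HEK293 and 15098, 22861 and 18526 in K562, which overlapped. U4 and U6, its partners in the tri-snRNP, had at most 47.1 RPM in any library. Reads of repeated elements were set aside before peaks were called, and the U5 genes are near-identical copies, so their split between genes is uncertain.

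SF3B4, a U2 snRNP protein that binds near the branch point, was read in the same tubes and took no part in choosing the introns. At the far end of introns marked in all 5 libraries, an enriched SF3B4 peak within 100 nt of the 3′ splice site was found for 25.1% and 24.5% in HEK293 and for 18.3%, 29.2% and 22.0% in K562, which overlapped (difference 1.64 percentage points, exact permutation p = 0.7). For introns of the HEK293 set it was found for 10.0% and 12.2% in HEK293 and for 1.28%, 2.88% and 2.63% in K562, a difference of 8.86 points with no overlap (exact permutation p = 0.1, two-sided). For introns of the K562 set it was found for 13.2% and 8.91% in HEK293 and for 19.2%, 30.4% and 22.9% in K562, a difference of −13.1 points with no overlap (exact permutation p = 0.1). Over all 188386 annotated introns of genes with a PRPF8 peak the shares were 6.58% ± 0.640 (SD, n = 2) in HEK293 and 6.0% ± 1.58 (SD, n = 3) in K562. With the enriched call, SF3B4 at both line-specific sets thus differed toward the line in which PRPF8 marked them. That call and the choice of introns both use an external background that differs between the lines, so they are not independent. The genes of the HEK293 set were also lower in the other RBPs, SF3B4 among them, in K562 (median 6.72 RPM, against 43.3 in HEK293). The part of either was not tested. With any merged SF3B4 peak, the difference was 9.41 points at the HEK293 set and −4.44 points at the K562 set, where the libraries overlapped (exact permutation p = 0.9).

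**Figure D4:**
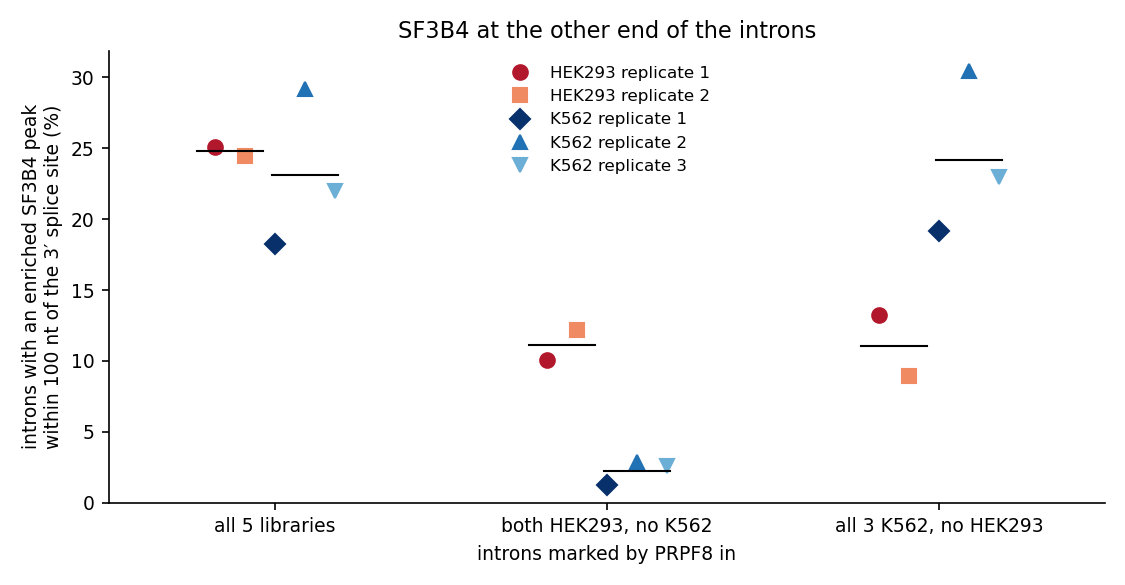
Share of introns with an enriched SF3B4 peak within 100 nt of the 3′ splice site (y axis, percent), 1 point per pool, for introns marked by PRPF8 in all 5 libraries, in HEK293 or in K562 (x axis). Horizontal lines are means per line, and the HEK293 points are above the K562 points at the HEK293 set (10.0 and 12.2 against 1.28 to 2.88) and below them at the K562 set.

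The sets differed little in their 5′ splice site letters and more in their place in the transcript. GTAAG or GTGAG, searched as the first 5 bases of the intron on its strand, began 54.4% of the introns marked in all 5 libraries, 51.4% of the HEK293 set and 56.1% of the K562 set, beside 48.0% of all annotated introns of genes with a PRPF8 peak. GTAAG alone began 33.8%, 29.6%, 31.1% and 24.6%. Starts with GC, a rarer form read by the same spliceosome, made up 1.22% to 1.35% of the 3 sets, beside 1.97% of all. U12-type starts, searched as exact ATATCCTT or GTATCCTT, are read by the minor spliceosome that shares the U5 snRNP. They were 2, 6 and 11 introns (0.0556%, 0.126% and 0.145%), beside 0.279% of all. First introns made up 10.0%, 17.6% and 9.32%, beside 19.8% of all annotated introns. Median lengths were 1543.5, 1974.5 and 1446 nt, beside 1629 nt. A small RNA gene lay within 300 nt after the 5′ splice site of 68 introns marked in all 5 libraries (1.89%), 4 of the HEK293 set (0.0842%) and 33 of the K562 set (0.435%). Over all annotated introns of genes with a PRPF8 peak it did so for 519 (0.275%). Introns marked in any library are a nearer base. Of these 66256, 52.5% began with GTAAG or GTGAG, 1.20% with GC and 0.160% with a U12-type start. First introns made up 11.8%, the median length was 1476 nt, and 0.462% had a small RNA gene. Beside that base, the HEK293 set was lower in GTAAG or GTGAG and higher in first introns.

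Genes chosen for their roles showed where the introns of each set lay. The erythroid genes held 34 introns of the K562 set and none of the others, and the kidney and neural genes held 9 of the HEK293 set and none of the others. Among 18 regulators of blood cells, 41 introns were in the K562 set, 2 in the HEK293 set and 4 in all 5 libraries. In genes of general RNA and ribosome functions the order turned with the call, except for hnRNP proteins, where the numbers drew near to each other. Under the enriched call, where all genes gave 7585 introns of the K562 set against 4750 of the HEK293 set, these genes gave 108 against 0 for hnRNP proteins, 128 against 2 for ribosomal proteins, 42 against 1 for U1 and U2 snRNP proteins, 29 against 0 for U5 and tri-snRNP proteins and 30 against 8 for SR proteins. With any merged peak, where all genes gave 2071 introns of K562 alone against 10226 of HEK293 alone, the same lists gave 7 against 6, 2 against 19, 0 against 8, 4 against 6 and 1 against 10. The erythroid genes then had 36 against 1, the kidney and neural genes 0 against 24 and the blood regulators 37 against 3, so that these kept their order under both calls. The snoRNA host genes held 42 introns marked in all 5 libraries, 10 of the K562 set and 2 of the HEK293 set. With any merged peak they held 1 of K562 alone and 11 of HEK293 alone. The 4 genes listed for the BCR–ABL1 region (BCR, ABL1, NUP214 and EXOSC2) held 36 introns of the K562 set and 0 of the HEK293 set. With any merged peak they held 3 of K562 alone and 2 of HEK293 alone. Their summed PRPF8 level was 488 to 526 RPM in HEK293 and 2328 to 2753 in K562. NUP214, a nuclear pore gene of that region, had 178 and 169 RPM in HEK293 and 1747, 1997 and 1740 in K562. The other RBPs moved with it, from 83.7 to 92.0 in HEK293 to 853 to 999 in K562. EXOSC2, a subunit of the RNA exosome, went the other way, with 211 and 157 RPM of PRPF8 in HEK293 and 100.7, 69.6 and 124 in K562, and with the other RBPs at 56.3 to 70.1 and 20.9 to 31.3.

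Set against the other RBPs of the same tube, PRPF8 at the 5′ splice sites of a gene had a median HEK293 minus K562 difference of −0.48 (log2) over 5179 genes. By limma with Benjamini-Hochberg adjustment, 84 genes (1.62% of those tested) were higher in HEK293 and 383 (7.40%) in K562 relative to the other RBPs. With each library centred on its median the split turned to 130 and 115. None passed without HEK293 replicate 1 or without HEK293 replicate 2, which leaves a lone HEK293 library that is assumed to vary like the K562 libraries, and 924 and 941 genes then had an unadjusted p below 0.05. Among the 467 calls, 154 had no reads of PRPF8 or of the other RBPs in a pool, and the genes that the rule names were of this kind. FAM83A, EGR1, PIK3CG, HBG1 and HBE1 had neither in HEK293, so their nominal place among the genes higher in HEK293 stands for no ratio. IRS4, ZNF503, PAWR and CACNA1H had no PRPF8 at a 5′ splice site in K562 and the other RBPs at most at 2.75 RPM.

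Genes with both in all 5 pools were therefore fitted alone, a choice made after the values were seen. Of 4679 such genes, 43 (0.919%) were higher in HEK293 and 424 (9.06%) in K562, and after centring 127 (2.71%) and 110 (2.35%), with 153 genes called by both fits. HK2, the hexokinase that starts glycolysis, had 59.9 and 43.0 RPM of PRPF8 in HEK293 and 6.87, 5.97 and 54.8 in K562, and 88.4 to 109 of the other RBPs in HEK293 against 236 to 445 in K562. Its centred log2 difference was 3.85 ± 0.57 (SE; limma, adjusted p = 0.0249), with K562 replicate 3 far above the others of its line. BLVRB, a biliverdin reductase of red cells, had 9.63 and 6.25 of PRPF8 in HEK293 and 45.8, 87.5 and 68.9 in K562, while the other RBPs had 1.89 to 2.46 and 75.3 to 111. SNHG6, SNHG26 and PLEKHB2 were also among the largest, with centred differences of 2.92 to 3.07. In all 5 genes named the other RBPs were higher in every K562 pool than in both HEK293 pools, and relative to them PRPF8 was lower in K562.

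In the other direction, the other RBPs were lower in K562 by more than PRPF8 was in 4 of the 6 genes, and PRPF8 was higher in K562 in the other 2. WARS2-AS1, a long noncoding RNA on the strand opposite to WARS2, had 66.3 and 68.0 RPM of PRPF8 in HEK293 and 64.1, 49.7 and 50.1 in K562, while the other RBPs had 93.2 and 101.4 in HEK293 and 7.06, 7.59 and 1.65 in K562. Its centred log2 difference was −3.46 ± 0.51 (SE; limma, adjusted p = 0.0247). DDB2, a sensor of ultraviolet damage in DNA, had at least 87.7 and 69.4 of PRPF8 in HEK293 and 29.8, 29.8 and 29.7 in K562, with the other RBPs at 75.8 to 107 and at 1.65 to 2.85. PTK7, a receptor of Wnt signalling, had 99.5 and 63.1 of PRPF8 in HEK293 and 19.9 to 25.2 in K562, with the other RBPs at 104 to 309 and at 2.85 to 3.84. SPPL2A, an intramembrane protease, and CDH24, a cadherin, differed the other way in PRPF8 itself, with 7.49 to 14.6 in HEK293 against 20.3 to 73.5 in K562. MRTFA, a coactivator of actin-responsive genes, completed the 6 with −3.11 ± 0.58 (SE; limma, adjusted p = 0.0336). The level of the other RBPs counts reads in called peaks, so that a low value rests on few peaks.

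**Figure D5:**
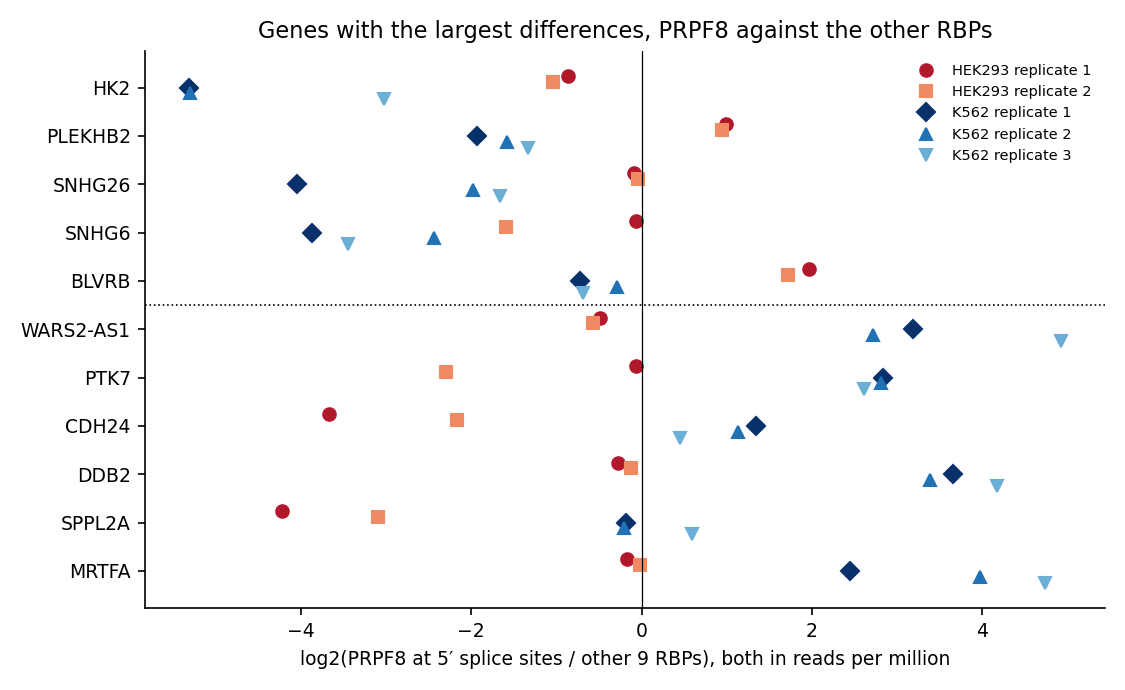
log2 ratio of PRPF8 reads at 5′ splice sites to reads of the other 9 RBPs, both in RPM (x axis), for 5 genes with large differences toward HEK293 and the 6 with the largest toward K562 among genes with both in all 5 pools (y axis), 1 point per pool. Above the dotted line the HEK293 points lie to the right of all K562 points, and below it to the left.

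Read by role, the ribosomal protein and snoRNA host genes stood higher in HEK293 relative to the other RBPs. Of 71 ribosomal protein genes with both in all 5 pools, 13 were called higher in HEK293 and 1 (RPS23) in K562 after centring, beside 2.71% and 2.35% of all genes, and their median was 1.05 against 0.03 over all genes. Of 19 snoRNA host genes, 10 were called higher in HEK293 and none in K562, with a median of 1.60. Without centring, over all genes tested, 4 ribosomal genes were called higher in HEK293 and 1 in K562, and 1 host gene and none, with medians of 0.53 and 1.08 beside −0.48. RPL4 had 704 and 702 RPM of PRPF8 in HEK293 and 549, 539 and 715 in K562, and 844 and 959 of the other RBPs in HEK293 against 1712 to 2061 in K562. NCL, the nucleolar protein nucleolin, had 1184 and 1587 of PRPF8 in HEK293 and 1254, 832 and 828 in K562, with the other RBPs at 1230 to 1341 and 1471 to 2747. The summed PRPF8 level of the ribosomal genes was 16238 to 17623 in HEK293 and 14995 to 19152 in K562, which overlapped, while that of the other RBPs was 22786 to 22994 and 35310 to 48249. The summed PRPF8 level of the host genes was 8547 to 8616 in HEK293 and 14407 to 14983 in K562, so PRPF8 itself was higher in K562. Their other RBPs summed to 15041 to 17328 in HEK293 and 40151 to 63756 in K562. Reads of the other RBPs at a small RNA inside an intron count toward its host, and their part in the host genes' difference was not tested.

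Of 14 genes of U5 and tri-snRNP proteins and of 22 hnRNP genes, none was called in either direction after centring, with medians of 0.26 and 0.56 (limma, 2 and 4 of them at an unadjusted p below 0.05). PRPF8 itself had 453 and 532 RPM of PRPF8 at its own 5′ splice sites in HEK293 and 298, 225 and 189 in K562, and the other RBPs had 384 to 436 and 234 to 294. SNRNP200, the helicase that unwinds U4 from U6, had 339 and 260 in HEK293 and 348, 348 and 286 in K562. SF3A1, of the U2 snRNP, was the 1 call among 16 genes of U1 and U2 proteins, and SRSF1 and SRSF5, of the SR family, were the 2 among 15, all higher in HEK293. Of 6 blood regulators with both in all pools, MYB and GATA2 were called higher in HEK293 relative to the other RBPs. Without centring, over all genes tested, SF3A1, SRSF5 and MYB did not pass (limma, adjusted p = 0.084, 0.081 and 0.066). MYB had 4.28 and 12.5 RPM of PRPF8 in HEK293 and 549 to 639 in K562, and the other RBPs had 0.738 and 0.946 against 205 to 228, so that its ratio in HEK293 rests on a trace of either. The lists were chosen with earlier results of these data known.

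Introns within a gene were compared next, as the share of the gene's PRPF8 signal at 1 intron. Both parts come from the same gene and library, so the other RBPs were not used as a control. The annotated 5′ splice sites of a gene can belong to different transcripts, whose use was not tested. Of 6018 introns, limma called 42 (0.698%) higher in HEK293 and 53 (0.881%) in K562. Without HEK293 replicate 1 it called none, with 651 introns at an unadjusted p below 0.05, and without HEK293 replicate 2 it called 8 and 41. The largest differences of either sign included both of 2 annotated 5′ splice sites of NPM1 that lie a few nt apart, and a site of H2AC6 with another a little over 100 nt away, between which peaks of the lines were shared out. With sites at most 100 nt apart merged, a choice made after the values were seen, 8 of 5828 (0.137%) were higher in HEK293 and 28 (0.480%) in K562. At 34 of these 36 calls 1 line had no peak at all, so that the size of the log2 difference depends on the 1 read added and no fold is given.

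The introns higher in HEK293 were of ribosomal protein genes and of NOP56 in 7 of 8 cases. The share of such genes among all introns tested was not counted, so no enrichment is read from this. NOP56 intron 11, of a box C/D snoRNP protein, had 118 and 133 RPM in HEK293 and no peak in K562, while the rest of the gene had 578 and 474 in HEK293 and 643 to 696 in K562 (limma, adjusted p = 0.0091). RPL19 intron 5 had 96.3 and 146 in HEK293 and no peak in K562, with the rest of the gene at 237 to 307 and 144 to 180. RPS2 intron 5 was also called (limma, adjusted p = 0.0091). It was named above by the same reads, so the call is no separate support. The rest of RPS2 had 649 and 681 in HEK293 and 603 to 653 in K562. RPL13A intron 7 and RPL34 intron 5 were likewise without a K562 peak, at 25.7 to 83.4 in HEK293. The centres at RPL19 and RPL34 lay −72.0 to −93.5 nt from the site, inside the exon. EGFL7 intron 10 had peaks in all 5 libraries, with 7.49 and 3.47 RPM in HEK293 against 10.7 and 5.55 in the rest of the gene, and 43.5 to 105 in K562 against 595 to 1116.

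The introns named as higher in K562 were of genes with other roles. MALAT1 at the site named above had 309, 286 and 304 RPM in K562 and no peak in HEK293, with the rest of the gene at 1349 and 1360 in HEK293 and at 4896 to 7005 in K562. VMP1 intron 11, in the gene whose end overlaps the MIR21 transcript, had 6.42 and 2.08 in HEK293 and 149, 157 and 254 in K562, while the rest of VMP1 had 37.4 and 40.2 in HEK293 and 28.2 to 47.7 in K562, so that it held 8.82% of the gene's pooled reads in HEK293 and 84.8% in K562 (limma, adjusted p = 0.030). FASN, fatty acid synthase, had 4 of the calls. Its intron 31 had 77.8, 93.5 and 70.4 in K562 and no peak in HEK293, where the rest of the gene had 823 and 827. CDC45 intron 16, of a replication fork helicase, had 64.2 to 75.5 in K562 and no peak in HEK293, where the rest had 180 and 373. CALR intron 3, of the calcium-binding chaperone calreticulin, had 29.7 to 43.8, with the rest at 203 and 273 in HEK293. RHOT2, PRKDC and H2AC6 completed the 8 largest, at 19.9 to 57.9 in K562, the rest of H2AC6 being its other site a little over 100 nt away.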

How the data were processed

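PRPF8 reads were deposited as peak lists per library. Per the labels and methods, the authors trimmed reads with cutadapt 2.8, set aside repeats, aligned the rest uniquely to GRCh38 with STAR 2.7.6, dropped PCR copies and ran the peak caller CLIPper on each replicate by itself. The deposited merged peaks carry a −log10 P, with an upper limit of 400, and a log2 fold over an external background, and a second set the same over the other 9 barcodes of the pool. The authors' CLIPper files carry a p-value and a display score, which was not used. By the methods, the external background of multiplexed libraries was total RNA-seq, from a separate dataset for each line.

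Reads per peak were recovered from fold and P, with 91.3% to 91.7% of PRPF8 peaks in HEK293 and 99.8% in K562 giving back the deposited P, and they equalled the count in the peak name for 99.5% to 99.6% in the K562 libraries with names. Reads at the P limit are lower bounds, except where the peak name gives the count. A value of 0 means that no peak was called. Each peak was given to the nearest 5′ splice site of GENCODE 44 on its strand. For the complement control, P was the deposited one over the other 9 barcodes, or that of the deposited list with repeats removed where a library lacked it. The fold was not the deposited one. It was computed from PRPF8 reads and the other barcodes' reads in called peaks at the site, the latter at least 1, each relative to its peak reads. Levels are reads per 1000000 peak reads of the library (RPM). The other RBPs' level is the pooled reads of the other 9 barcodes in the gene, in RPM of their pooled peak reads, peaks at small RNAs within introns included. Fits used limma 3.58.1 on log2 of reads plus 1, scaled to RPM, for genes and introns with a mean of at least 20 RPM, and as much of the other RBPs or of the rest of the gene, with Benjamini-Hochberg adjustment over all of them. Single values were compared by exact permutation of the 5 libraries, which cannot go below p = 0.1. Read recovery and site assignment were tested on simulated data. Intervals cover counting error only. Python 3.11.15 and R 4.3.3 were used.

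The members and lists were chosen with earlier results of these data known. Introns named are the 8 highest of each set, those of 1 line without any CLIPper peak in the other and in genes with peaks of the other RBPs in every pool, 1 per gene. Genes named are the 6 called with the largest difference in each direction and without overlap of the libraries (4 for introns), and up to 4 of the highest members of each list. Genes and introns outside these rules, among them the introns without a small RNA, those after merging of sites, MYB, SRSF1, SRSF5, SF3A1, GATA2 and RPS23, were chosen after their values were seen. Some items that these rules name are not reported here.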

Additional observations from a re-analysis of the deposited data

How the results depend on the processing

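Introns marked in all 5 libraries, in HEK293 alone, in K562 alone and in part of the other line numbered 13931, 10226, 2071 and 20494 with any merged peak, and 13939, 10227, 2070 and 20497 with unmerged CLIPper peaks. Stricter limits gave 1270, 2783 and 2619 for the first, second and last, and peaks centred on the intron side 1819, 2150 and 3919. The complement control gave 2011 in all 5 libraries and 833 in K562 alone, lists of equal length 4755 in K562 alone, and 2 of 3 K562 replicates 5722 and 15874. Leaving out each library gave 4052 to 4894, 5253 to 12328, 8628 to 11057 and 5790 to 7767. The share on the intron side was 11.0 percentage points higher in HEK293 by the 5′ end of the peak, and −18.0 to −5.37 without each library. Genes of the HEK293 set with other RBPs in K562 were 80.1% with at least 1 pool, 30.0% with 3 RBPs, 58.1% without SF3B4 and 59.8% to 71.0% without each library, and those of the K562 set in HEK293 95.8%, 91.2% and 94.6% to 95.9% in the first, second and last of these. The SF3B4 difference at introns of all 5 libraries was −1.45 within 50 nt and −1.19 to 5.76 without each library, turning sign without HEK293 replicate 1. Lists of equal length gave median lengths of 1268.5 nt (all 5) and 1746 nt (HEK293), and any merged peak gave 1649 nt and 54.5% GTAAG or GTGAG for K562. The causes were not tested.

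Genes called higher in HEK293 and in K562 numbered 159 and 1040 with 5 reads added, 0 and 0 with no filter (limma, 1817 at an unadjusted p below 0.05), 130 and 115 centred, 624 and 1045 without subtraction of the other RBPs, 44 and 148 without RBFOX2, and 127 and 110 for genes with both in all 5 pools after centring, or 43 higher in HEK293 without it. A mean of at least 100 gave 208 and all intronic reads 787 higher in K562. Leaving out each library gave 0 to 72 and 0 to 473, with 33 and 94 without K562 replicate 1 and 55 and 189 without K562 replicate 3. Introns called numbered 8 and 28 with sites merged, 3 and 7 at a mean of at least 100, and 6 and 16 with a peak in all 5 libraries. With 5 reads added 75 were higher in HEK293, and with a limma trend 33 in K562. Leaving out each library gave 0 to 33 and 0 to 41, the 0 without HEK293 replicate 1. Without subtraction the sign turned for FAM83A (−6.05), EGR1 (−5.11), PIK3CG (−5.18), ENSG00000227706 (−8.51), HBG1 (−5.49), HBE1 (−7.51), IRS4 (6.90), ZNF503 (5.50), PAWR (5.01), CACNA1H (5.45), SYNGR1 (2.1), PRKCZ (3.73), PLEKHB2 (−0.61), SNHG26 (−0.76), SNHG6 (−0.15), BLVRB (−2.96), WARS2-AS1 (0.28), PTK7 (1.70), DDB2 (1.31) and MRTFA (0.45), and with all intronic reads for PLEKHB2 (−0.82), since PRPF8 alone is then compared. No paired analysis was possible because the lines share fewer than 2 replicate numbers, only the 1, both by the current and by the original numbers in the titles.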

Other observations

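Introns whose share of their gene's PRPF8 signal was higher in HEK293 lay at the end of the transcript. With neighbouring 5′ splice sites merged, 6 of the 8 such introns (75%) were the last of their transcript, among them NOP56 intron 11, RPL13A intron 7, RPL34 intron 5, RPL19 intron 5 and EGFL7 intron 10, against 4 of the 28 higher in K562 (14.3%) and 499 of the 5828 tested (8.56%). This was noticed after the values were seen and is given as a description with no test.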
